A study of Mus musculus with 21 samples.

Results

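The 9 genes described here are 5 chemokines (Ccl3, Ccl4, Ccl6, Ccl9 and Cxcl2) and 4 chemokine receptors (Ccr1, Ccr2, Cxcr2 and Cxcr4). They were found through the RefSeq accession that each array probe carries, which gave 12 probes for the 9 genes, of 41174 probes and 18217 named genes in all. Each gene was followed with its brightest probe over 7 sorted haematopoietic fractions of C57BL/6 bone marrow, each measured on 3 one-colour microarrays (21 in all). The labels give no genetic change or treatment, and neither the age of the mice nor whether marrows were pooled. KLS, the least mature fraction, is labelled as lineage-negative cells with ckit and sca1. On the erythroid side PreMegE is labelled lin- ckit+ sca1+ with CD150 but neither CD105 nor Fc gamma receptor I/II, CFUe (erythroid colony-forming cells) likewise but without CD150, and Ter119 as CD71+ Ter119+ cells. On the myeloid side PreGM carries the same printed markers as CFUe, GMP (granulocyte-macrophage progenitors) lacks CD150 and has Fc gamma receptor I/II, and Mac1Gr1 is positive for Mac1 and Gr1. The labels therefore do not separate CFUe from PreGM, and they print sca1+ for every lineage-negative fraction.

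A level is the log2 signal of a probe minus the 75th percentile of its array, so that 0 is the brightness of a probe at that percentile and 1 unit is a 2-fold difference. Levels of one probe can be compared between fractions, but not with those of another probe. A gene was called higher or lower where the limma fit over all 29533 tested probes gave a change of 1 log2 unit or more with a Benjamini-Hochberg adjusted p under 0.05. The labels do not say whether the 3 arrays of a fraction came from separate mice or sorts, so the p-values measure the spread between these samples.

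The fractions carried the lineage genes of their names, with exceptions that touch the chemokines. Klf1, the erythroid transcription factor, had a level of 3.91 in CFUe and 2.40 in Ter119 against -1.88 in PreGM, which separates the 2 fractions whose printed markers are the same. Ly6a, which encodes Sca1, had a level of 2.57 in KLS but -3.14 in PreMegE and -5.81 in CFUe. The Ter119 fraction held neutrophil transcripts. The summed signal of 14 neutrophil markers, in units of each array's 75th percentile, was 4737 to 5951 in Ter119 and 5559 to 6192 in Mac1Gr1, against 5.42 to 41.4 in CFUe, whose highest value was in replicate 3. The 10 B cell markers summed to 221 to 313 in Ter119 and to 43.9 to 74.8 in Mac1Gr1. KLS held macrophage transcripts, 13 markers summing to 33.1 to 92.2, against 1.94 to 2.79 in PreMegE and 7.23 to 8.19 in PreGM. In sorted bulk samples fewer cells of a type and less RNA per cell cannot be told apart.

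**Figure D1:**
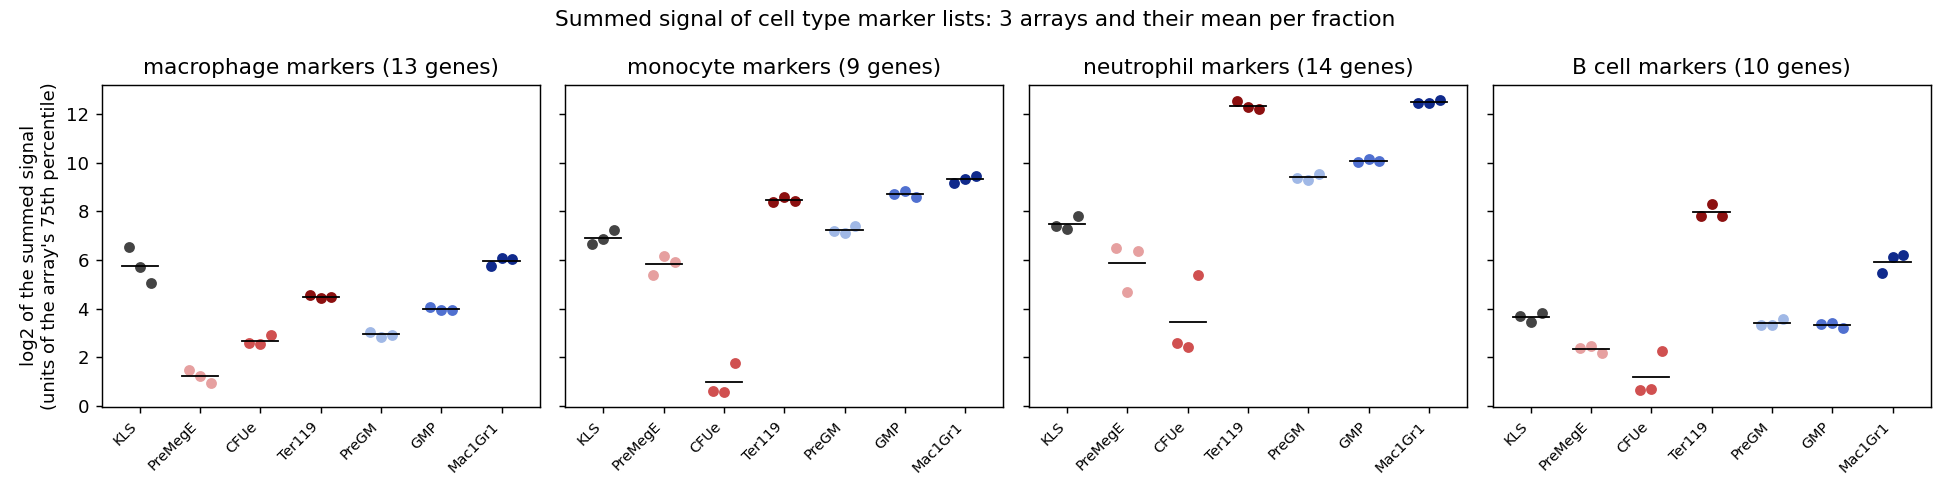
Summed signal of the macrophage, monocyte, neutrophil and B cell marker lists on each array, on a log2 axis, with a line at the mean of the 3 arrays of a fraction. The neutrophil sum of Ter119 lies near that of Mac1Gr1, the macrophage sum of KLS lies above that of PreMegE and PreGM, and CFUe replicate 3 has the highest neutrophil sum of the 3 CFUe arrays.

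Chemokines are small secreted proteins that guide leukocytes along gradients through receptors coupled to heterotrimeric G proteins. Ccl3 and Ccl4 (the macrophage inflammatory proteins) attract monocytes, macrophages and lymphocytes, and Ccl3 is a ligand of Ccr1. Ccl6 and Ccl9 are CC chemokines of the myeloid lineage that act through Ccr1, and Cxcl2 attracts neutrophils through Cxcr2. Ccr2, the receptor of Ccl2, takes monocytes out of the marrow, and Cxcr4, the receptor of stromal Cxcl12, keeps stem cells and neutrophils in it.

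Ccl3, Ccl6 and Ccl9 lie in one cluster of chemokine genes on chromosome 11, and all 3 had lower levels in PreMegE than in KLS and PreGM, so the 250 bases before their start sites are shown. The RefSeq table used here gave such a sequence for 8 of the 9 genes, all but Ccl4. The windows below are from build GRCm38.p6, on the minus strand, written 5′ to 3′, and lie at chr11:83649379-83649628 (Ccl3), chr11:83593088-83593337 (Ccl6) and chr11:83578637-83578886 (Ccl9). Capitals mark a match to one of the 4 motifs searched on both strands.
Ccl3: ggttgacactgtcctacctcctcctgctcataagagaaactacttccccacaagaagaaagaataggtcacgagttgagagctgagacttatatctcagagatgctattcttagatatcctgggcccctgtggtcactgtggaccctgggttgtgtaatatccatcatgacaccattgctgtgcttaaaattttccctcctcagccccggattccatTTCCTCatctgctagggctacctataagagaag
Ccl6: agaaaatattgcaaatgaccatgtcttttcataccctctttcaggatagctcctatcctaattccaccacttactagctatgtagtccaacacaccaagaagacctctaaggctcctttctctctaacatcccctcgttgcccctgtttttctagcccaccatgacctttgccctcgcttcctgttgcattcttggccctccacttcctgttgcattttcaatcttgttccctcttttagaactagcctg
Ccl9: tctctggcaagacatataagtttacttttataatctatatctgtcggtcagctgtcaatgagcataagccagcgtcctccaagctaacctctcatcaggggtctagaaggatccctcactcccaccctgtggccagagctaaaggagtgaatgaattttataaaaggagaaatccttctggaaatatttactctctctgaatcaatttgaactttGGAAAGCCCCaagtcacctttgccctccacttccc
The Ccl3 window held the reverse complement of the PU.1 core GAGGAA, the Ccl9 window a match to the kappa-B motif, and the Ccl6 window no match. Over the 8 windows, the PU.1 core was found in 3 (Ccl3, Ccr1 and Cxcr2), the GATA core AGATAA in 1 (Ccr2), the C/EBP motif TTGCNNAA in 0 and the kappa-B motif in 3 (Ccl9, Cxcl2 and Ccr1). The same windows of all 32851 promoters held them in 23.3%, 9.99%, 9.56% and 7.25%. No 2 different motifs overlapped in these 8 windows, although both strands of 1 Cxcl2 site matched kappa-B. A match is a description of the letters and not a site of binding.

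Ccl3 was bright in KLS and along the whole myeloid side and was low on the erythroid side before Ter119. Its level was 4.63, 4.27 and 3.90 on the KLS arrays, 4.96, 5.13 and 3.96 in PreGM, 3.89, 3.82 and 3.89 in GMP and 3.02, 2.80 and 2.88 in Mac1Gr1. In PreMegE it was -2.14, -2.30 and -3.32, and in CFUe -5.81, -6.31 and -2.38, where 1 of 3 arrays was well above background. In Ter119 it was 3.28, 2.93 and 3.54. Every KLS and PreGM array therefore lay above every PreMegE and CFUe array. From KLS to PreMegE Ccl3 fell by 6.85 ± 0.68 on the log2 scale (SE, adjusted p 7.21e-07), a 116-fold difference. It fell again from PreMegE to CFUe, with a change of -2.25 ± 0.68 (adjusted p 0.0108), which was -0.60 (adjusted p 0.127) with normexp background correction. That call rested on the CFUe arrays, since the change was -1.76 (adjusted p 0.0624) without CFUe replicate 1, -1.51 (adjusted p 0.0757) without replicate 2 and -3.48 (adjusted p 6.81e-07) without replicate 3.

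Ccl4 had the same order as Ccl3 at its upper end, with PreGM and KLS first and GMP and Ter119 next. Its level was 5.04, 4.76 and 4.54 in KLS, 5.43, 5.48 and 4.29 in PreGM, 3.54, 3.67 and 3.48 in GMP and 1.25, 1.33 and 1.40 in Mac1Gr1. It was 1.41, 1.64 and 0.90 in PreMegE, -4.47, -4.34 and -2.41 in CFUe and 2.72, 2.61 and 2.84 in Ter119. The PreMegE and Mac1Gr1 arrays overlapped, while CFUe lay below all others. Ccl4 fell at both early erythroid steps, with changes of -3.47 ± 0.41 into PreMegE (adjusted p 5.42e-06) and -5.05 ± 0.41 into CFUe (adjusted p 3.09e-08). On the myeloid side it fell into GMP, with a change of -1.51 ± 0.41 (adjusted p 0.0117), and again into Mac1Gr1, with -2.24 ± 0.41 (adjusted p 1.001e-04). The fall to GMP was not called without PreGM replicate 1 (-1.33, adjusted p 0.0539) or without PreGM replicate 2 (-1.30, adjusted p 0.0579).

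Ccl9 had its highest levels in the myeloid progenitors rather than in KLS. Its level was 5.18, 5.09 and 5.36 in PreGM and 4.82, 4.88 and 4.66 in GMP, against 2.84, 2.68 and 2.68 in KLS and 2.31, 2.18 and 2.46 in Mac1Gr1. On the erythroid side it was -0.66, -0.64 and -0.99 in PreMegE, -4.57, -3.92 and -1.25 in CFUe and 2.88, 2.78 and 3.14 in Ter119. Only the Ter119 and KLS arrays, neighbours in this order, overlapped. From KLS, Ccl9 rose by 2.48 ± 0.52 into PreGM (adjusted p 0.00225) and fell by 3.50 ± 0.52 into PreMegE (adjusted p 6.18e-05). With the array slide as a block the latter change was -2.49 (adjusted p 0.0530). The change from PreMegE on to CFUe was -2.48 ± 0.52 (adjusted p 6.99e-04), and that from GMP on to Mac1Gr1 -2.47 ± 0.52 (adjusted p 3.66e-04).

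Ccl6 was the chemokine of the mature fractions. Its level was 8.09, 8.05 and 8.13 in Mac1Gr1 and 6.05, 5.93 and 6.01 in Ter119. It was 0.64, 0.73 and 0.55 in GMP, 0.04, 0.05 and 0.18 in PreGM and 0.45, -0.24 and -0.57 in KLS, and the last 2 fractions overlapped. In PreMegE it was -4.45, -4.25 and -4.61, and in CFUe -3.72, -7.27 and -6.02, where 1 of 3 arrays was well above background. Ccl6 rose by 7.45 ± 0.54 from GMP to Mac1Gr1 (adjusted p 1.31e-09), a 175-fold difference, and by 11.66 ± 0.54 from CFUe to Ter119 (adjusted p 3.96e-12). It fell by 4.32 ± 0.54 from KLS to PreMegE (adjusted p 1.06e-05). The further change into CFUe was -1.23 (adjusted p 0.0707), -2.20 (adjusted p 1.42e-05) without CFUe replicate 1 and -1.73 (adjusted p 0.0465) with slide as a block.

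Cxcl2 moved least of the chemokines. Its level was 1.56, 1.32 and 1.11 in Mac1Gr1, where every array lay above every other fraction, and -1.86, -2.58 and -4.31 in CFUe, the lowest. The fractions in between overlapped with their neighbours, at means of 0.11 in PreGM, -0.10 in GMP, -0.80 in KLS, -0.81 in Ter119 and -1.52 in PreMegE. Cxcl2 rose from GMP to Mac1Gr1 by 1.43 ± 0.57 (adjusted p 0.0324). That call was lost without any one of the GMP arrays and without Mac1Gr1 replicate 1 or 2 (adjusted p 0.0533 to 0.0844). With slide as a block the change was 0.96 (adjusted p 0.272), and with spike-in scaling it was -0.60. It was not called in any of the 3 steps from KLS or PreGM to their next fractions, and from PreMegE to CFUe the change was -1.39 ± 0.57 (adjusted p 0.0524), which was called at -2.01 (adjusted p 0.0308) with slide as a block.

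**Figure D2:**
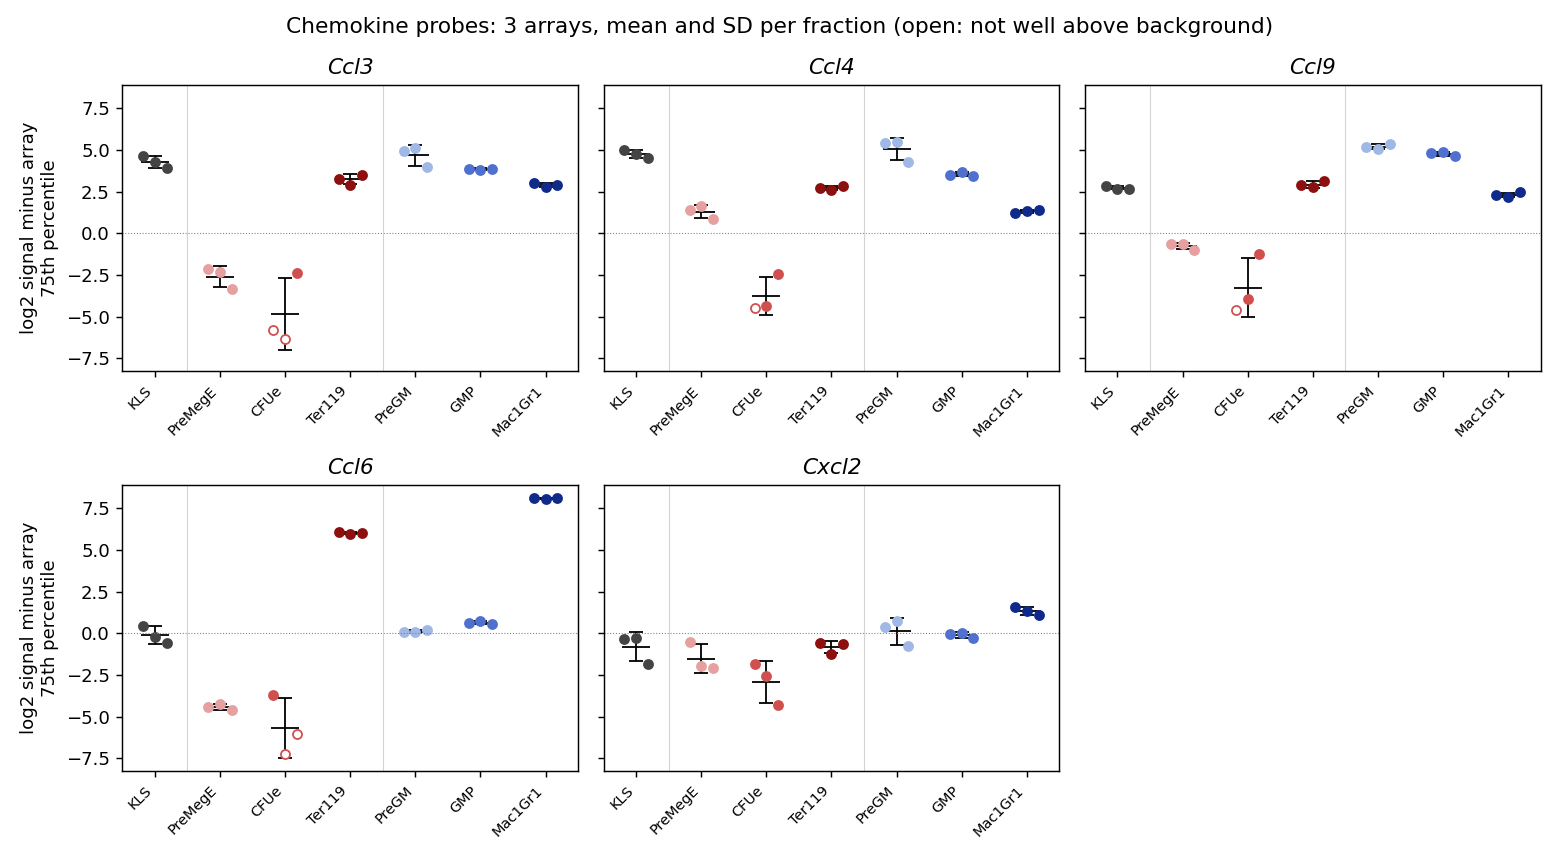
Levels of the 5 chemokine probes on each array by fraction, as log2 signal minus the array's 75th percentile, with the mean and SD of 3 arrays and open points where the probe was not well above background. Ccl3, Ccl4 and Ccl9 are high in KLS, PreGM and GMP and low in PreMegE and CFUe, and Ccl6 is highest in Mac1Gr1 and Ter119.

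Ccr1, the receptor of Ccl3, Ccl6 and Ccl9, was not well above background on any array of KLS, PreMegE, CFUe, PreGM or GMP. Its level was 0.87, 0.07 and 0.13 in Mac1Gr1 and -1.99, -3.41 and -1.94 in Ter119, without overlap. The Mac1Gr1 mean was at least 54.7-fold higher than the GMP mean (adjusted p 2.38e-12), and the Ter119 mean at least 5.35-fold higher than that of CFUe (adjusted p 2.85e-09). In these bounds the dim fraction stands at the faintest signal that counted as well above background on each of its arrays. KLS, PreGM and GMP thus held Ccl3 and Ccl9 signal while the probe of their receptor was not well above background.

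Ccr2 divided the progenitors. Its level was 0.53, 0.55 and 0.999 in PreGM and 0.96, 0.82 and 0.84 in GMP, against -3.38, -3.16 and -3.56 in KLS, and no array of PreMegE or CFUe had it well above background. In Mac1Gr1 it was 0.85, 0.61 and 0.87, and in Ter119 1.67, 1.60 and 2.04, above every other array. Between KLS and PreGM Ccr2 rose 16.7-fold, a change of 4.06 ± 0.34 (adjusted p 3.28e-07), and the means of PreGM, GMP and Mac1Gr1 lay within 0.18 of each other. KLS exceeded PreMegE at least 4.22-fold (adjusted p 2.87e-05). The gene's other probe gave -1.84 for that comparison, with an adjusted p of 0.0550, and kept the call for the rise into PreGM (3.22). With normexp the KLS to PreMegE change was -0.64 (adjusted p 0.00290), under 1 log2 unit and so not called.

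Cxcr2, the receptor through which Cxcl2 acts, had its largest change at the last step of each side. Its level was 6.39, 6.97 and 7.02 in Mac1Gr1 and 4.13, 4.46 and 4.10 in Ter119. It was -1.02, -1.04 and 0.29 in PreGM, -1.80, -1.60 and -1.56 in GMP, -3.45, -2.71 and -2.82 in KLS and -3.09, -2.69 and -3.20 in PreMegE, with KLS and PreMegE overlapping. In CFUe it was -6.72, -4.89 and -4.07, with 2 of 3 arrays well above background. Cxcr2 rose by 8.45 ± 0.49 from GMP to Mac1Gr1 (adjusted p 5.48e-11), a 350-fold difference, and by 9.46 ± 0.49 from CFUe to Ter119 (adjusted p 1.33e-11). It also rose into PreGM, by 2.40 ± 0.49 (adjusted p 0.00175), which was 2.66 with an adjusted p of 0.0558 with slide as a block. The fall from PreMegE to CFUe (-2.23 ± 0.49, adjusted p 9.71e-04) was -0.48 (adjusted p 0.511) with the gene's other probe and -0.63 (adjusted p 0.0432) with normexp, neither of them called.

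Cxcr4 was well measured in every fraction and varied least among the receptors. Its level was 3.40, 3.42 and 3.16 in Mac1Gr1, 2.30, 2.05 and 2.15 in Ter119, 0.74, 0.70 and 1.004 in GMP, 0.51, 0.57 and 0.37 in PreGM and 0.75, 0.63 and 0.00 in KLS. In PreMegE it was -0.26, -0.57 and -0.31 and in CFUe -1.37, -1.33 and -0.49. It rose by 2.51 ± 0.22 from GMP to Mac1Gr1 (adjusted p 1.13e-08), where the change was 0.48 with spike-in scaling, and by 3.23 ± 0.22 from CFUe to Ter119 (adjusted p 4.08e-10). The changes from KLS to PreMegE (-0.84, adjusted p 0.00735) and from PreMegE to CFUe (-0.68, adjusted p 0.0140) were under 1 log2 unit.

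**Figure D3:**
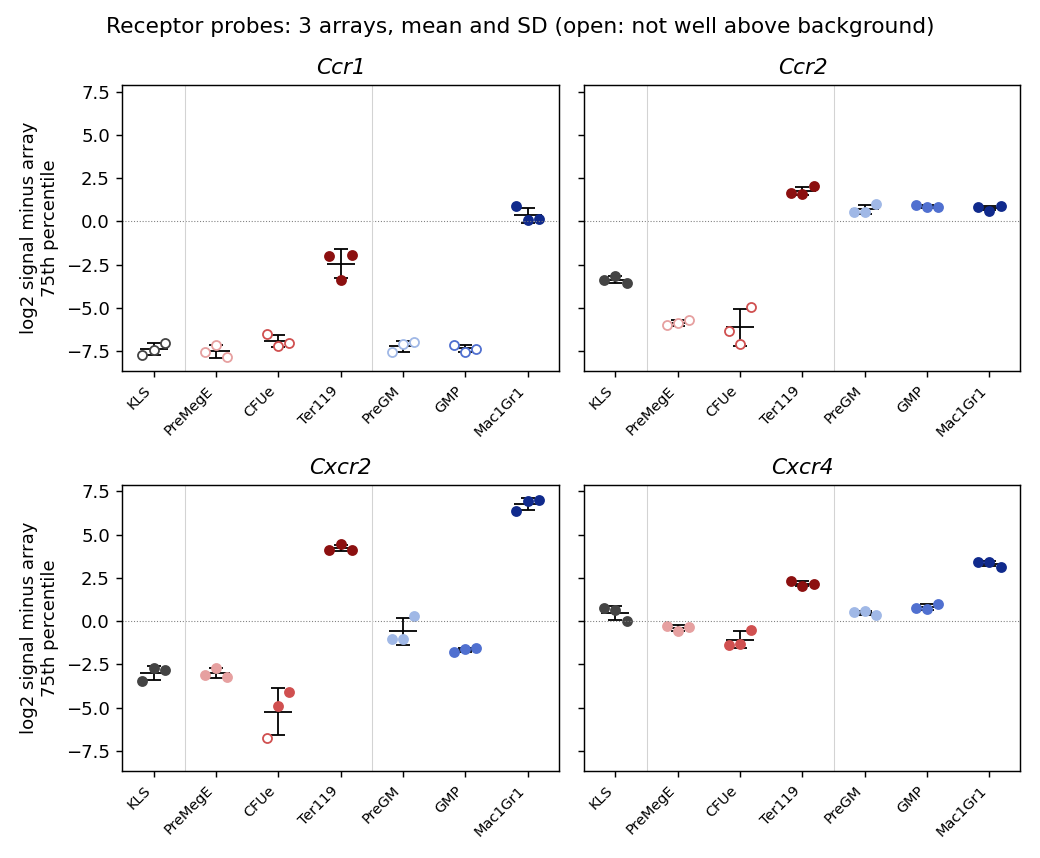
Levels of the 4 receptor probes on each array by fraction, as log2 signal minus the array's 75th percentile, with the mean and SD of 3 arrays and open points where the probe was not well above background. Ccr1 has filled points in Ter119 and Mac1Gr1 only, Ccr2 is high in PreGM and GMP as well, and Cxcr2 and Cxcr4 peak in Mac1Gr1.

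At the first step every call from KLS was lower into PreMegE and higher into PreGM, and Ccl9 and Ccr2 were called on both sides. The calls of Ccl9 and Ccr2 into PreMegE and of Cxcr2 into PreGM were lost under some alternatives, given above. Of the 9 genes, 5 were lower in PreMegE (Ccl3, Ccl4, Ccl6, Ccl9 and Ccr2) and 0 higher, where 8.86% of all tested probes were called lower and 3.55% higher. In all, 3 were higher in PreGM (Ccl9, Ccr2 and Cxcr2) and 0 lower, against 2.11% of all probes higher and 6.53% lower. The 5 chemokines had a median change of -3.50 into PreMegE and 0.42 into PreGM, where those of all tested probes were 0.13 and 0.06. Beside the fall into PreMegE, 13 of 13 macrophage markers were called lower too, and 12 of 13 into PreGM, where Ccl3 and Ccl4 had changes of 0.42 (adjusted p 0.717) and 0.29 (adjusted p 0.672). The monocyte list had 6 of 9 markers lower in PreMegE (median -2.82), and in PreGM 6 higher and 2 lower (median 2.65). The part of macrophage and monocyte RNA in these results was not tested. The 2 comparisons share the KLS arrays.

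Compared directly, PreMegE was below PreGM in 7 genes (all but Ccr1 and Cxcr4) and above it in 0, against 6.23% of all probes called lower and 5.81% higher. The changes were -7.27 ± 0.68 for Ccl3 (adjusted p 4.13e-07), -5.97 ± 0.52 for Ccl9 (adjusted p 1.67e-07), -4.53 for Ccl6, -3.75 for Ccl4, -2.40 for Cxcr2 and -1.63 for Cxcl2 (adjusted p 0.0431). The Cxcl2 call was lost without PreMegE replicate 2 or 3 or PreGM replicate 1 or 2 (adjusted p 0.127 to 0.169). It was also lost with spike-in scaling (adjusted p 0.161), without the filter on dim probes (0.0652) and in a fit of these fractions alone (0.0793). PreGM exceeded PreMegE in Ccr2 at least 70.5-fold (adjusted p 5.82e-10). The Cxcr4 change was -0.86 (adjusted p 0.00603), under 1 log2 unit. The other Cxcr4 probe had means of -1.54 in PreMegE and -0.50 in PreGM, more than 1 unit apart. On the 2 slides that held an array of both fractions, the Ccl3 changes were -7.25 and -7.28 and those of Ccl9 -5.82 and -6.35. Beside these, 8 of 9 monocyte markers were called lower in PreMegE and 1 higher, and the macrophage list was lower in 3 and higher in 2 of 13.

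At the second step 4 of the 9 genes fell from PreMegE to CFUe (Ccl3, Ccl4, Ccl9 and Cxcr2) and 0 rose, against 14.7% of all probes called lower and 9.96% higher. Beside them 7 of 9 monocyte, 8 of 10 eosinophil, basophil and mast cell and 6 of 14 neutrophil markers were called lower in CFUe, and their part was not tested. From PreGM to GMP 1 fell (Ccl4) and 0 rose, against 6.36% lower and 4.01% higher. On the slide shared by a CFUe and a PreMegE array the change was -4.17 for Ccl3, -5.74 for Ccl4, -3.26 for Ccl9 and -1.80 for Cxcr2, and on that shared by GMP and PreGM it was -1.89 for Ccl4. The difference between the sides at this step was called for 3 genes, Ccl4 (-3.55 ± 0.58, adjusted p 1.55e-04), Ccl9 (-2.06, adjusted p 0.0387) and Cxcr4 (-1.02, adjusted p 0.0160), against 20.2% of all probes called in either direction. Of the 3, Ccl4 alone held its call whichever array was left out. Ccl9 lost it whichever array of the 4 fractions was left out, other than CFUe replicate 3, and without that array, which had the highest Ccl3, Ccl4 and Ccl9 of the CFUe arrays, 6 genes were called.

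CFUe was below GMP in 8 of the 9 genes (all but Ccr1) and above it in 0, against 14.2% of all probes called lower and 12.1% higher. The changes were -8.70 ± 0.68 for Ccl3 (adjusted p 1.04e-08), -8.03 ± 0.52 for Ccl9 (adjusted p 8.49e-10), -7.30 for Ccl4, -6.31 for Ccl6, -3.57 for Cxcr2, -2.82 for Cxcl2 and -1.88 for Cxcr4. GMP exceeded CFUe in Ccr2 at least 52.3-fold. Without CFUe replicate 3 all 8 were called as well, with Ccl3 at -9.93 and Ccl9 at -9.03. Beside them 9 of 9 monocyte and 10 of 14 neutrophil markers were called lower in CFUe.

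**Figure D4:**
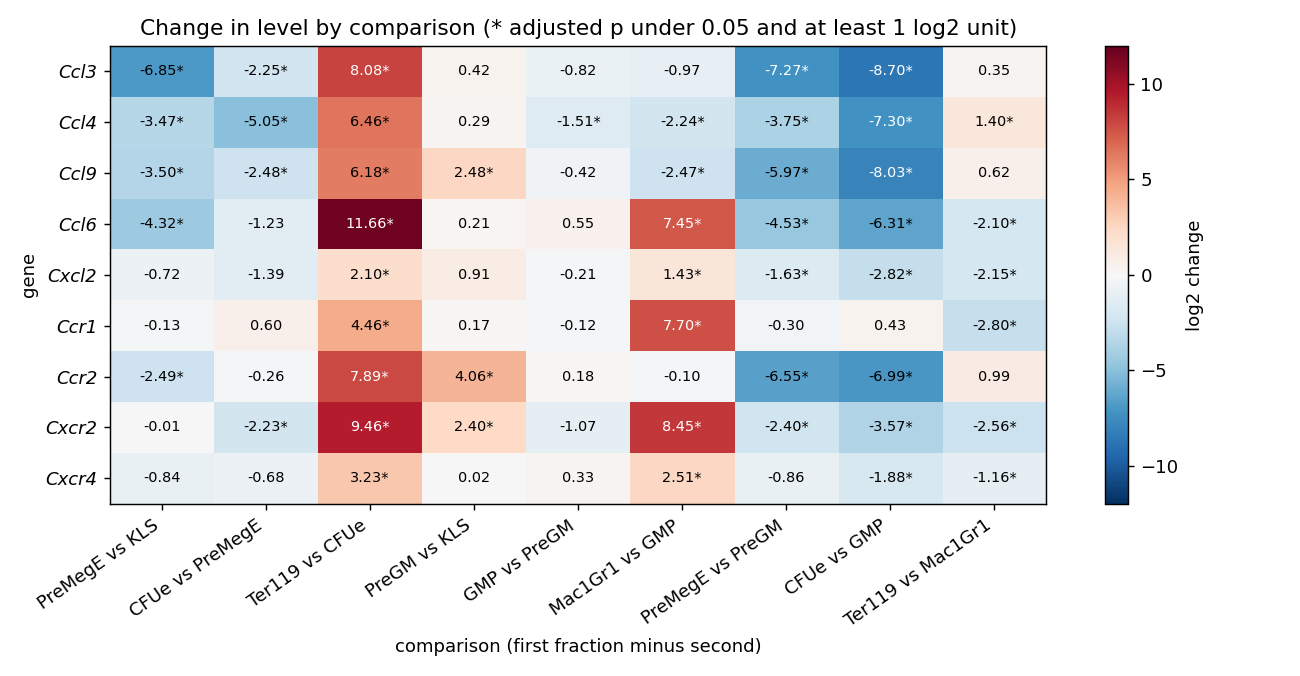
Log2 change of each of the 9 genes in the 9 comparisons, first fraction minus second, with colour for its size and direction and a star where it was called. Values of Ccr1 and Ccr2 include fractions in which their probes were not well above background. The columns of PreMegE and CFUe against KLS, PreGM or GMP hold no star with a positive value, and all 9 genes have a star with a positive value in Ter119 vs CFUe.

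At the last erythroid step all 9 genes rose from CFUe to Ter119, against 29.2% of all probes called higher and 28.0% lower. The changes ran from 2.10 ± 0.57 for Cxcl2 (adjusted p 0.00317) to 11.66 ± 0.54 for Ccl6, with 8.08 ± 0.68 for Ccl3, 6.46 ± 0.41 for Ccl4 and 6.18 ± 0.52 for Ccl9. Ccr2 was at least 97.4-fold higher. The 9 calls held without CFUe replicate 3, and on the slide that held an array of both fractions the 9 changes were positive, from 1.21 for Cxcl2 to 10.83 for Cxcr2. With spike-in scaling the Cxcl2 change was 0.73 (adjusted p 0.320). Beside them all 14 neutrophil, all 9 monocyte and all 10 B cell markers were called higher in Ter119, with median changes of 10.31, 6.41 and 5.66, and 10 of 13 macrophage markers. The part of myeloid and lymphoid RNA in the Ter119 chemokine levels was not tested.

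At the last myeloid step 5 genes rose from GMP to Mac1Gr1 (Ccl6, Cxcl2, Ccr1, Cxcr2 and Cxcr4) and 2 fell (Ccl4 and Ccl9), against 29.1% of all probes called higher and 27.6% lower. Ccl3 (-0.97 ± 0.68, adjusted p 0.207) and Ccr2 (-0.10 ± 0.34, adjusted p 0.809) did not pass. Ccl3 was called lower with slide as a block (-2.20, adjusted p 0.0206), with normexp (-1.03, adjusted p 0.00570) and with spike-in scaling (-3.00, adjusted p 1.23e-04), and Ccr2 with spike-in scaling (-2.13), under which the median of all probes moved from 0.17 to -1.86. The rise of Cxcl2 was not called with slide as a block (0.96, adjusted p 0.272), and that of Cxcr4 was 0.48 with spike-in scaling. At the main setting 3 of the 4 receptors were called higher, and of the chemokines 2 were called higher and 2 lower. Beside them 11 of 14 neutrophil (median 8.87), 11 of 13 macrophage (median 3.29) and 10 of 10 B cell markers (median 4.44) were called higher in Mac1Gr1, and their part was not tested. The difference between the sides at this step was called for 6 of the 9 genes, against 39.9% of all probes in either direction. It was 9.05 ± 0.96 for Ccl3, 8.70 ± 0.58 for Ccl4, 8.65 ± 0.73 for Ccl9, 7.99 ± 0.49 for Ccr2 and 4.21 ± 0.77 for Ccl6, all with the higher change on the erythroid side, and -3.24 ± 0.49 for Ccr1. The values of Ccr1 and Ccr2 include fractions in which the probe was not well above background.

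Between the mature fractions, Ter119 was lower than Mac1Gr1 in 5 genes (Ccl6, Cxcl2, Ccr1, Cxcr2 and Cxcr4) and higher in 1 (Ccl4), against 19.9% of all probes called lower and 22.0% higher. The changes were -2.10 ± 0.54 for Ccl6 (adjusted p 0.00276), -2.15 ± 0.57 for Cxcl2 (adjusted p 0.00340), -2.80 ± 0.35 for Ccr1 (adjusted p 1.97e-06), -2.56 ± 0.49 for Cxcr2 (adjusted p 1.92e-04) and -1.16 ± 0.22 for Cxcr4 (adjusted p 1.64e-04). Ccl4 was higher by 1.40 ± 0.41 (adjusted p 0.00645). Ccr2 was 0.99 above Mac1Gr1 (adjusted p 0.0174), just under the 1 unit needed for a call, and passed it without Ter119 replicate 1 or 2 or Mac1Gr1 replicate 1 or 3. It also passed with slide as a block (1.48, adjusted p 0.0262), with quantile scaling (1.16), in the value table (1.15) and with the mean of its probes (1.04). With slide as a block the Cxcr2 change was -1.93 (adjusted p 0.0595), that of Cxcr4 -0.70 (adjusted p 0.0118), and Ccl3 passed at 2.22 (adjusted p 0.0302). Beside them 10 of 10 B cell and 8 of 10 T and NK cell markers were called higher in Ter119. Of the 13 macrophage markers, 11 were called lower and 1 higher (median -1.46). Of the 14 neutrophil markers, 4 were called lower and 2 higher (median -0.69). The part of RNA from these cells was not tested.

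Over the 7 fractions, 9 of the 9 genes differed by the moderated F-test, as 94.7% of all probes did. Across the 7 fraction means, which share arrays, the Pearson correlation was 0.96 between Ccl3 and Ccl9, 0.89 between Ccl3 and Ccl4, 0.99 between Ccl6 and Cxcr4 and 0.97 between Cxcr2 and Cxcr4, and -0.10 between Ccl4 and Ccr1. Among 14277 other genes, those most like each gene over these 7 means were Sting1 (0.990) and Pou2f2 (0.988) for Ccl3, H2-M3 (0.993) and Tespa1 (0.984) for Ccl4, and Irf8 and Ms4a6c (both 0.987) for Ccl9. They were Itgam, which encodes the Mac1 antigen used in sorting, (0.998) and Jaml (0.992) for Ccl6, and Zfp53 (0.991) and Ltbr (0.987) for Cxcl2. For the receptors they were Ifi209 (0.987) and Pld4 (0.977) for Ccr2, Sp100 (0.993) and Agrp (0.990) for Cxcr2, and C130050O18Rik (0.997) and Ppm1m (0.996) for Cxcr4. For Ccr1 they were Bmpr1a (0.9998) and Lyve1 (0.999), but the Ccr1 probe was not well above background in 5 of the 7 fractions. This order therefore rests on Mac1Gr1 and Ter119, and 1058 genes had a correlation over 0.9 with Ccr1. Many genes also passed 0.9 with Cxcr4 (736), Cxcr2 (725) and Ccl6 (527), so their nearest genes are not particular to them. The fraction means of Agrp were low, from -5.81 to -3.31.

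Ligands of these receptors also lie outside the 9 genes. Cxcl12, the Cxcr4 ligand made by stromal cells, was dim, with means from -5.16 in CFUe to -3.14 in Mac1Gr1. It was called higher in Ter119 than in CFUe (1.93 ± 0.53, adjusted p 0.00344). In Mac1Gr1 it was called higher than in GMP (1.90 ± 0.53, adjusted p 0.00405). Of the Cxcr2 ligands other than Cxcl2, Cxcl1 was well above background on all arrays of PreGM (-3.60) and GMP (-2.59) and was lower in Mac1Gr1, at least 4.40-fold, and Cxcl5 was not well above background on any array. Cxcl3 was well above background on all arrays of PreMegE (-4.48) and GMP (-4.80) alone. Ppbp, a platelet chemokine that gives rise to another Cxcr2 ligand, was well above background on all arrays of KLS (-3.66) and PreMegE (-3.30) and on none of the other 5 fractions. It was at least 3.05-fold lower in PreGM than in KLS (adjusted p 2.06e-08), at least 3.92-fold higher in PreMegE than in PreGM (adjusted p 1.98e-09) and at least 2.97-fold lower in CFUe than in PreMegE (adjusted p 1.61e-09). Ccl2, the main Ccr2 ligand, had levels of -1.73 in KLS, -0.63 in PreMegE and -4.25 in CFUe. It rose by 1.09 ± 0.20 into PreMegE (adjusted p 4.05e-04) and fell by 3.62 ± 0.20 into CFUe (adjusted p 3.14e-10), and thus rose at the step at which Ccr2 fell. Of the other Ccr2 ligands, Ccl7 was well above background on all 3 arrays of PreMegE alone (-4.17), Ccl12 on no more than 1 array of a fraction, and Ccl8 on all arrays of KLS (-3.41), Ter119 (-3.83) and Mac1Gr1 (-3.24). KLS exceeded PreGM in Ccl8 at least 3.61-fold (adjusted p 7.61e-05).

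Of 31 other chemokines listed, 30 were on the array and 21 were tested. They were split from KLS to PreMegE (4 higher, 4 lower) and from KLS to PreGM (2 higher, 4 lower), and from CFUe to Ter119 11 rose and 4 fell. Pf4, a chemokine of megakaryocytes and platelets, had a level of 4.53 ± 0.23 (SD of the arrays) in PreMegE against 1.21 ± 0.20 (SD) in KLS. The change was 3.32 ± 0.31 (SE, adjusted p 3.80e-07), and Pf4 fell by 5.07 ± 0.31 into CFUe. Ccl17, a ligand of Ccr4, rose by 5.18 ± 0.34 into PreMegE (adjusted p 4.45e-09), the fraction in which Ccl3, Ccl4, Ccl6 and Ccl9 fell. Cxcl10, an interferon-induced ligand of Cxcr3, reached 6.30 ± 0.03 (SD) in GMP and fell by 6.02 ± 0.77 (SE) into Mac1Gr1 (adjusted p 1.67e-06). Cxcl9, another such ligand, was at least 8.93-fold lower in PreMegE than in KLS. Ccl5, a chemokine of T cells, rose by 5.76 ± 0.28 from CFUe to Ter119 (adjusted p 8.26e-12). Xcl1, a chemokine of T and natural killer cells, rose by 5.71 ± 0.63 at that step (adjusted p 2.97e-07) and was 3.93 ± 0.63 above Mac1Gr1 (adjusted p 3.69e-05). Cx3cl1, the ligand of Cx3cr1, was brightest in KLS (-0.55) and at least 4.24-fold lower in Mac1Gr1 than in GMP (adjusted p 2.11e-04).

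Of 20 other receptors, all were on the array and 15 were tested. Of these, 7 fell from KLS to PreMegE and 0 rose, 14 rose from CFUe to Ter119 and 0 fell, and 9 rose and 1 fell from GMP to Mac1Gr1. Ackr1, the Duffy antigen of red cells, rose by 4.69 ± 0.28 into Ter119 (adjusted p 9.09e-11), where it was 5.79 ± 0.28 above Mac1Gr1 (adjusted p 2.67e-11). Ccr7 and Cxcr5, which guide lymphocytes to lymph nodes and follicles, were at least 48.8-fold and 30.0-fold higher in Ter119 than in CFUe, beside the 10 B cell markers. Cx3cr1, the fractalkine receptor of monocytes, was higher in PreGM than in KLS by 3.16 ± 0.34 (adjusted p 5.48e-06), as Ccr2 was. Ccr3, the eotaxin receptor, fell into PreMegE (-3.92 ± 0.49) and into PreGM (-4.15 ± 0.49), and Cxcr1, the relative of Cxcr2, was at least 9.07-fold higher in Mac1Gr1 than in GMP. Ccr6, the receptor of Ccl20, rose by 5.78 ± 0.26 from CFUe to Ter119 (adjusted p 2.92e-12), where it was 3.74 ± 0.26 above Mac1Gr1. Ccrl2, an atypical receptor, fell into CFUe (-1.55 ± 0.37, adjusted p 0.00199), and CFUe differed from GMP by -3.01 ± 0.37 (adjusted p 2.73e-06). Ccr9, which guides lymphocytes to the gut, fell from KLS into both PreMegE (-1.92 ± 0.19) and PreGM (-1.74 ± 0.19). Cxcr3 fell from KLS to PreMegE (-1.04 ± 0.20) and from PreGM to GMP (-1.04 ± 0.20).

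**Figure D5:**
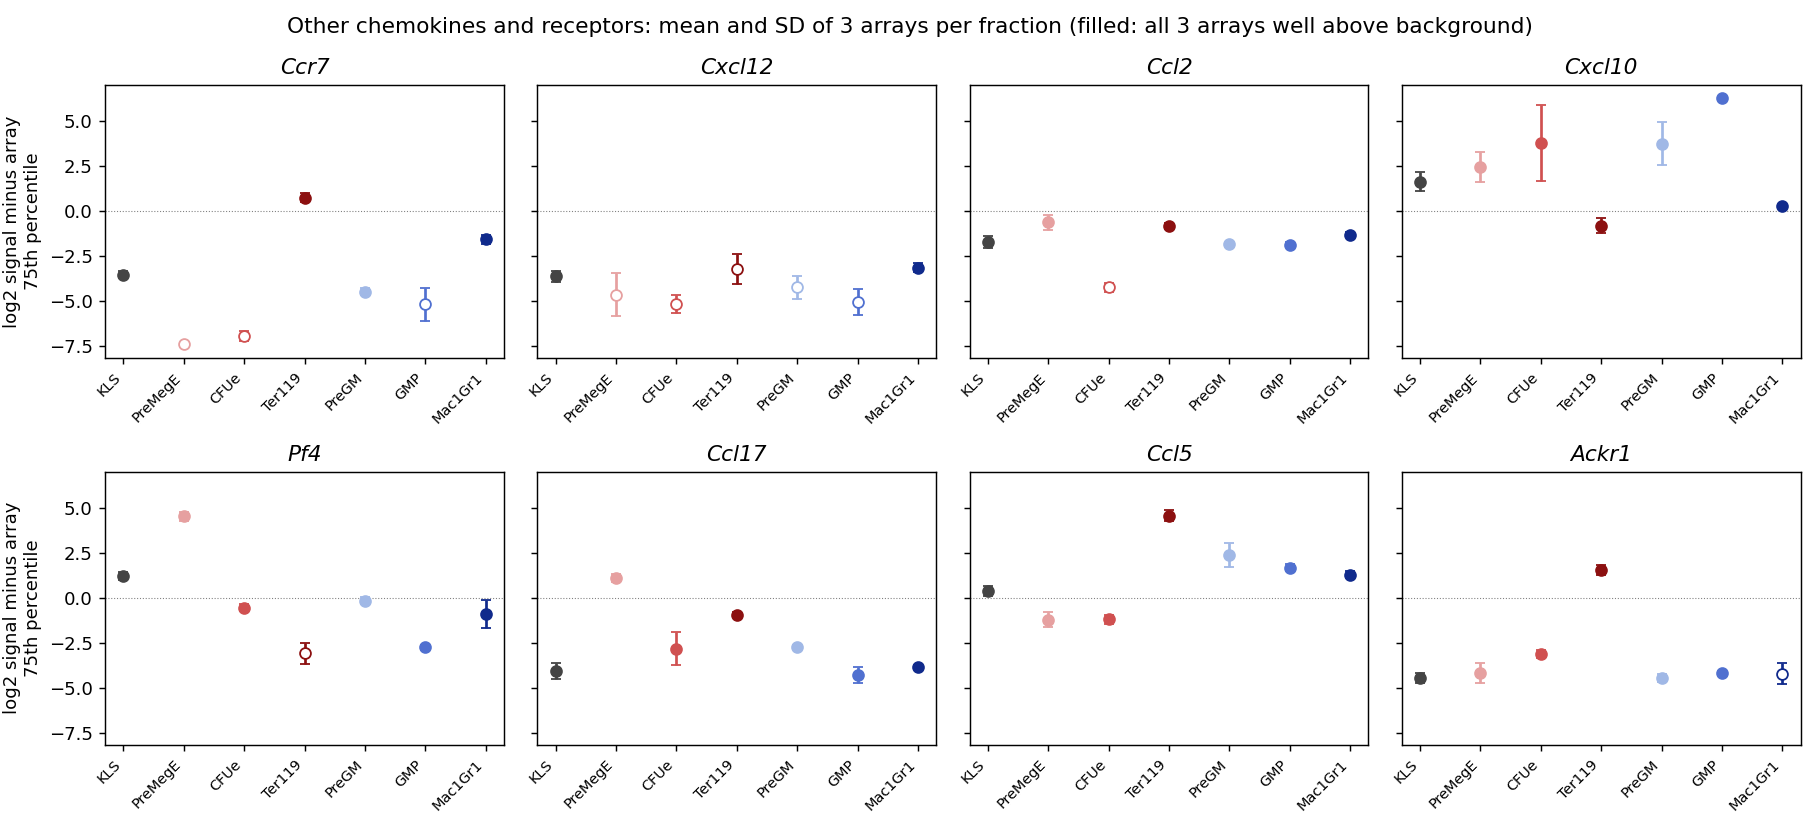
Levels of 8 other chemokines and receptors by fraction, as the mean and SD of log2 signal minus the array's 75th percentile over 3 arrays, filled where all 3 arrays were well above background. Pf4 and Ccl17 are highest in PreMegE, Cxcl10 in GMP and Ccl5 and Ackr1 in Ter119, and Cxcl12 is dim throughout.

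Of 28 genes for the signalling and desensitisation of these receptors (G protein subunits, receptor kinases, arrestins, Rgs proteins and the Rac pathway), 27 were tested. From PreMegE to CFUe 17 fell and 1 rose, with a median of -1.24, where that of all probes was 0.12. From CFUe to Ter119 18 rose and 1 fell, from GMP to Mac1Gr1 17 rose and 3 fell, and in Ter119 20 were lower and 2 higher than in Mac1Gr1. The early steps moved few of them, with 1 higher and 3 lower from KLS to PreMegE and 1 in each direction from KLS to PreGM. Of 16 immediate early and NF-kB response genes, which can be induced by handling as well as by signals, 13 fell from PreMegE to CFUe and 0 rose. From KLS to PreMegE 2 rose and 1 fell, and into PreGM 0 rose and 7 fell.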

How the data were processed

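Per the labels, RNA and synthetic spike-in transcripts were amplified with Cy3 and hybridised to one-colour Agilent whole mouse arrays. The deposited scanner files hold background-subtracted intensity per spot, made by the authors with Agilent Feature Extraction 10.7.1.1, and the authors' value table holds log2 values of the same arrays, used as an alternative. The study's methods name LIMMA and SAM.

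Control and outlier spots were left out (no spot was saturated), spots of a probe averaged and log2 intensities centred on each array's 75th percentile. Per array, 56.5% to 77.4% of probes were well above background, and 3 arrays per fraction limit the precision. Probes well above background on 3 arrays of at least 1 fraction were tested (29533 of 41174), in 1 fit of 7 fraction means (limma 3.58.1, R 4.3.3) with Benjamini-Hochberg adjustment over all of them. The script was tested on simulated data. Names came from RefSeq accessions (64.8% of probes). A fold bound uses, on each array, the faintest signal of the probes well above background, or the probe's own if higher. Slides held too few shared fractions for more than 5 within-slide contrasts.

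The genes and lists were chosen with earlier results of these data known. Named were the 9 genes, called genes of the other chemokine and receptor lists with the largest changes (up to 3 per comparison), known partners, and the 2 most alike genes each. One gene that this rule names is not reported here. Figures were drawn with matplotlib 3.10.9. Alternatives were the scaling (quantile, spike-in), normexp, the filter, the minimum fold, a slide or replicate block, the value table, the mean of probes, leaving out each array, and fits restricted to the fractions compared.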

Additional observations from a re-analysis of the deposited data

Results flagged for a closer look

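The changes of 6 genes differed between the erythroid and the myeloid side at the last step, tested by limma as the difference of the changes (Ter119 minus CFUe, less Mac1Gr1 minus GMP). The differences were 9.05 for Ccl3, 8.70 for Ccl4, 8.65 for Ccl9, 7.99 for Ccr2, 4.21 for Ccl6 and -3.24 for Ccr1. At the second step (CFUe minus PreMegE, less GMP minus PreGM) they were -3.55 for Ccl4, -2.06 for Ccl9 and -1.02 for Cxcr4. For the last-step difference, 9 of 9 monocyte markers were called higher in their change, not their level, on the erythroid side (median 7.75). So were 9 of 10 eosinophil, basophil and mast cell markers (median 7.93). Of the 14 neutrophil markers, 7 were called higher and 2 lower (median 2.61). The part of RNA from these cells was not tested. Without CFUe replicate 3, whose neutrophil sum was 41.4 against 6.00 and 5.42 on the other CFUe arrays, the second-step differences were -4.21 for Ccl4, -3.05 for Ccl9 and -1.30 for Cxcr4, and 6 genes were called.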

How the results depend on the processing

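From PreMegE to CFUe 7 genes were called with spike-in scaling and 2 with normexp, in place of 4. From PreGM to GMP 3 were called with spike-in scaling, all higher, and 0 to 1 when 1 array was left out. The second-step difference was called for 1 gene with quantile scaling, 8 with spike-in scaling, 1 with the authors' value table and 1 to 6 when 1 array was left out. For the counts named here the cause was not tested. Spike-in scaling shifted the median of all probes, from 0.17 to -1.86 for Mac1Gr1 vs GMP, from -0.02 to 0.99 for GMP vs PreGM and from 0.05 to -1.33 for Ter119 vs CFUe, and changes under it are to be read against that shift. All other counts of called genes stayed within 1.5 times.

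Among the called changes, 1 turned its sign, Cxcl2 Mac1Gr1 vs GMP (-0.60 with spike-in scaling). The others that turned were not called at the main setting. With spike-in scaling they were Ccl3 (-0.20), Ccl4 (-0.33), Ccl6 (-0.40), Ccr1 (-0.44) and Cxcr4 (-0.59) for PreGM vs KLS, Ccl3 (0.20), Ccl9 (0.59), Cxcl2 (0.81) and Ccr1 (0.89) for GMP vs PreGM, Ccr1 (-0.95) for CFUe vs GMP, Ccl3 (-0.38) and Ccl9 (-0.10) for Ter119 vs Mac1Gr1, and Ccr1 (-0.80) for the second-step difference. With normexp they were Ccr1 (0.25) and Cxcr2 (0.056) for PreMegE vs KLS, Ccr2 (0.14) for CFUe vs PreMegE, Ccl3 (0.17) and Cxcr2 (0.30) for the second-step difference and Cxcr2 (-1.10) for that of the third. With quantile scaling they were Ccr1 (0.038) and Cxcr2 (0.13) for PreMegE vs KLS, Ccl4 (-0.050) and Cxcr4 (-0.0067) for PreGM vs KLS and Ccr1 (0.0061) for GMP vs PreGM. With the value table they were Ccr1 (0.032) and Cxcr2 (0.14) for PreMegE vs KLS and Ccl4 (-0.012) and Cxcr4 (-0.024) for PreGM vs KLS. With the slide block they were Ccr1 (0.056) and Cxcr2 (0.27) for PreMegE vs KLS, and with the mean of all probes Ccr2 for CFUe vs PreMegE (0.66), Mac1Gr1 vs GMP (0.029) and the second-step difference (0.45). When 1 array was left out, the ranges that crossed 0 were those of Ccr1 (-0.33 to 0.048) and Cxcr2 (-0.23 to 0.14) for PreMegE vs KLS, Ccr2 for CFUe vs PreMegE (-0.85 to 0.21) and the second-step difference (-1.03 to 0.028), Ccl6 (-0.016 to 0.50) and Cxcr4 (-0.21 to 0.17) for PreGM vs KLS, Cxcl2 for GMP vs PreGM (-0.65 to 0.11) and Cxcl2 for the third-step difference (-0.023 to 1.20). The Cxcr2 third-step difference, 1.01 and not called at the main setting, was called in both directions under alternatives. It was called negative with normexp (-1.10, adjusted p 0.0131). It was called positive with spike-in scaling (1.67, adjusted p 0.0283) and without CFUe replicate 3 (1.59, adjusted p 0.0367).

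Replicate numbers showed no pairing of the samples by the correlation of deviations between fractions. Its median was 0.0025 for same-numbered pairs and 0.0072 for pairs with different numbers. Of the 63 same-numbered pairs, 21 were over 0.1 (range -0.43 to 0.37). With the replicate block Cxcl2 CFUe vs PreMegE was called (-1.39, adjusted p 0.0136), and no other call of the 9 genes changed. Signal over background limits Ccr1 in 5 fractions and Ccr2 in 2, where there are only bounds.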
